A study of Homo sapiens with 2 samples.

Results

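The HOX genes encode homeodomain transcription factors and lie in 4 clusters, HOXA on chromosome 7, HOXB on chromosome 17, HOXC on chromosome 12 and HOXD on chromosome 2. The members were the protein-coding RefSeq genes whose symbol is HOXA, HOXB, HOXC or HOXD followed by a number, 39 of 19970 protein-coding genes on chromosomes 1 to 22 and X. Their accessible regions were those in the gene body or within 1 kb of an annotated gene end, 46 of 130506 regions after the lists of both libraries had been merged. Neither rule used a measured level.

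Open chromatin of CAL27 cells, an established line of human tongue squamous carcinoma, was mapped by ATAC-seq, an assay that lets the Tn5 transposase insert adapters where DNA is accessible. The groups were CAL27 cells given 10 mM lactate for 24 h, 1 library of 15401276 tags, and untreated CAL27 cells, 1 library of 18248413 tags. Neither condition was replicated, so no test was possible and each value compares these libraries. The series was designed to ask how added lactate alters the chromatin of oral squamous carcinoma cells.

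HOX genes give cells along the body axis and in the limbs their positional identity. Genes with low paralogue numbers act in anterior structures and genes with high numbers in posterior ones, and their order on the chromosome follows that order. The factors bind DNA together with TALE homeodomain partners of the PBX and MEIS families. Polycomb complexes keep silent clusters closed, while trithorax complexes and retinoic acid signalling favour their expression. Adult epithelia keep part of this positional code, and HOX expression is often altered in squamous carcinomas.

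Of the 39 genes, 20 had a RefSeq promoter sequence, in 26 windows that hold the 250 bases before an annotated start (GRCh38.p14, the assembly of hg38). The windows below show HOX promoters under an accessible region of both libraries and, last, one with no region in either. HOXA3 and HOXD11 are the open promoters whose overlapping regions have the most summit tags in their cluster. The highest summit of each of these regions lies outside the window shown. HOXA7 has the highest GC content among genes without a region. HOXA10 and HOXD1 were added after their values had been seen. Capitals mark matches, on either strand, to the TATA box TATAAA, the CCAAT box, the GC box GGGCGG, the AP-1 site TGANTCA, the HOX and PBX site TGATTNAT and the CTCF core motif. No base in these windows belonged to matches of more than 1 motif.
HOXA3, chr7:27150951-27151200, minus strand: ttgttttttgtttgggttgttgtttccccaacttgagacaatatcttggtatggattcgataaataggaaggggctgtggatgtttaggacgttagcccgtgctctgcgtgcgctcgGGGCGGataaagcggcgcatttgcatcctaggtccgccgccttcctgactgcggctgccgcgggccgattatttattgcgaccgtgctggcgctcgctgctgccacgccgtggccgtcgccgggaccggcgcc
HOXD11, chr2:176107030-176107279, plus strand: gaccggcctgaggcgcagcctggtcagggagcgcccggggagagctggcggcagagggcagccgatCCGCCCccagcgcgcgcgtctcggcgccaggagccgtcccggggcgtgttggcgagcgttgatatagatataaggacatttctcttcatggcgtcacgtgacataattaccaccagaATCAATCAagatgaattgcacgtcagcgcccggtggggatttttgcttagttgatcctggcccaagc
HOXA10, chr7:27179862-27180111, minus strand: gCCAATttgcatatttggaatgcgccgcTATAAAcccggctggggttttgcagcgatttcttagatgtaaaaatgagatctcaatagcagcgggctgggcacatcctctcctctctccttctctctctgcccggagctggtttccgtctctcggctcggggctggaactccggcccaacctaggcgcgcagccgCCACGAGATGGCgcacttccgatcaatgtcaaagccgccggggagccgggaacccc
HOXD1, chr2:176188418-176188667, plus strand: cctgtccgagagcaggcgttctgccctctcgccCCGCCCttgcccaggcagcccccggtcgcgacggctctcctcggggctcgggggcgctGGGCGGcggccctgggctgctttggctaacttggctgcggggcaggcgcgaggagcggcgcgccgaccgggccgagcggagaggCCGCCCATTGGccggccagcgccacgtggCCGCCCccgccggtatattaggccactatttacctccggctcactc
HOXA7, chr7:27156676-27156925, minus strand: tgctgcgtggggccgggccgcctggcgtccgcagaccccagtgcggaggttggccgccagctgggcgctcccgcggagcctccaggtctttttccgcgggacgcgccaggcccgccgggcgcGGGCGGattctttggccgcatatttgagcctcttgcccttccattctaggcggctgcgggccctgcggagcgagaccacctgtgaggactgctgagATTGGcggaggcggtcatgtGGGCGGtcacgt
HOXD11 alone of these windows holds the HOX and PBX motif, and HOXA10 alone holds the CTCF core motif. HOXA7, without a listed region, carries GC boxes and a CCAAT box like the open window of HOXD1.

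Within 1 kb, 12 HOX genes had no accessible region in either library, and the 4 genes listed in 1 library alone lay in HOXB. In the lactate library 27 of 39 HOX genes had a region in the body or within 1 kb, against 84.3% of all protein-coding genes, and in the untreated library 23 of 39 had one, against 80.6%. Both libraries listed a region at 23 genes, the lactate library alone at 4 (background 4.31%), the untreated library alone at none (background 0.621%) and neither at 12. The 12 genes without a region make up 30.8% (exact 95% binomial interval 17.0 to 47.6) of the HOX genes, against 15.1% of all protein-coding genes. HOX genes are short, with a median body of 3785 bp against 24190 bp. The HOX range of body lengths was 1677 to 45574 bp. Among the 12210 genes within it, 18.2% had no region in either library, a share inside the HOX interval. The range is wide beside the HOX median, so this share is not matched to typical HOX lengths. The HOX count rested on the window. Within 5 kb, 37 genes had a region in the lactate and 33 in the untreated library, and 2 had none in either. That was 5.13% (0.627 to 17.3), against 10.5% of all protein-coding genes. The HOX share was then the lower one, with 10.5% inside its interval. Binomial intervals here and Poisson intervals further on cover counting error only, and genes of a cluster are neighbours that can share a region. A gene without a listed region can still have had tags below the calling threshold.

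The clusters differed in how they were filled. All 10 HOXB genes had a region in the lactate library and 6 of 10 in the untreated library. In lists of equal length by fold enrichment HOXB had 6 in each, and with a recomputed −log10 p of at least 7 it had 5 and 4. The contrast narrowed or closed under these 2 choices. At a fold enrichment of at least 4 HOXB had 8 in the lactate and 4 in the untreated library. Within 5 kb it had 10 and 7, and at 0 kb 8 and 6. HOXA had 7 of 11 genes with a region in each library, HOXC 6 of 9 in each and HOXD 4 of 9 in each. The genes without any were HOXA2, HOXA6, HOXA7 and HOXA9, then HOXC8, HOXC9 and HOXC12, and HOXD3, HOXD4, HOXD9, HOXD10 and HOXD12. Inside HOXD, 36.9 kb without a region in either library held all of HOXD3, a gene of axial skeleton patterning, and HOXD4. Inside HOXC, a stretch of 19.1 kb held HOXC12.

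**Figure D1:**
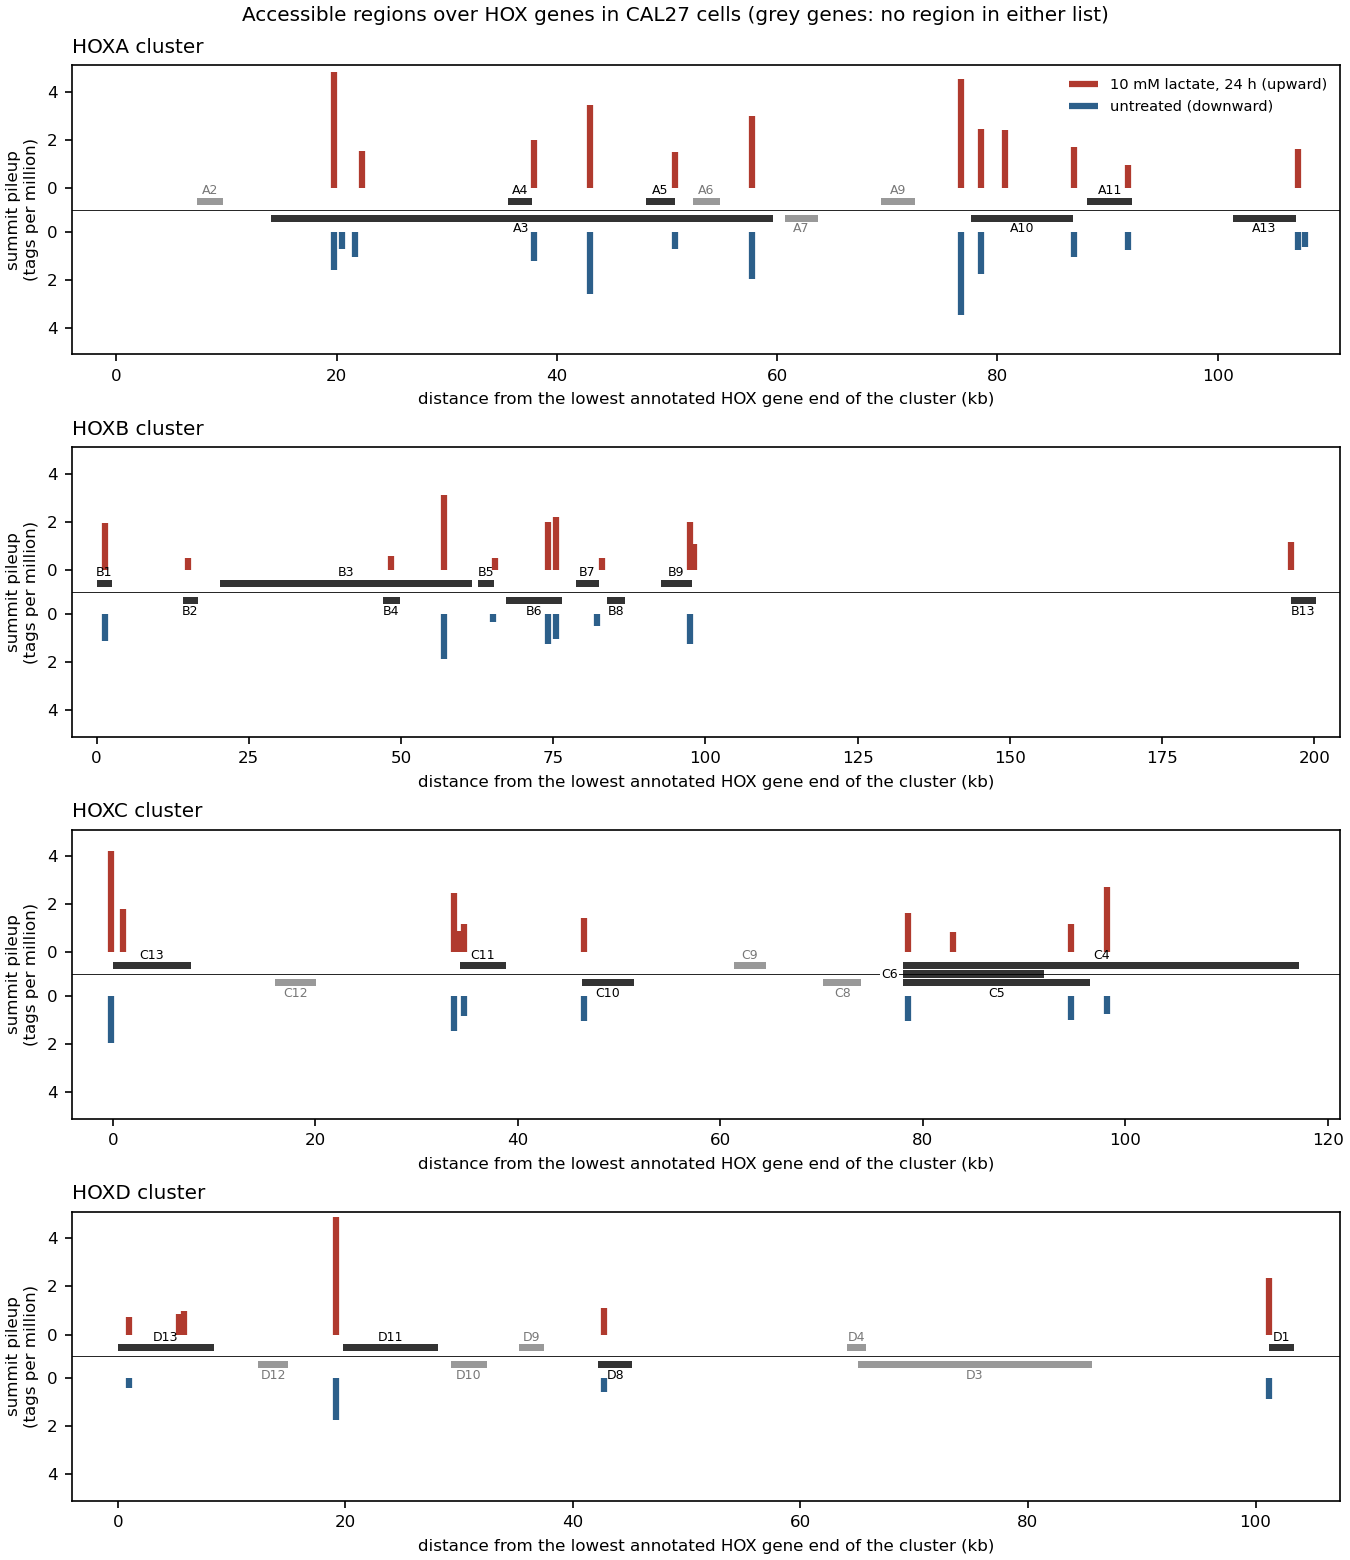
Each panel shows one HOX cluster in kb from its lowest annotated HOX gene end, with summit pileup (tags per 1000000 tags of the library) drawn upward for the lactate library and downward for the untreated library; bars between them are 38 of the 39 genes, grey where neither list has a region. HOXB has a lactate bar in or within 1 kb of every gene, while HOXD3 and HOXD4 lie in a stretch of HOXD without a bar. Regions between the genes, more than 1 kb from any of them, are not drawn.

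By position along the axis, the share of genes with a region was lowest for posterior genes in each library, with overlapping intervals. Anterior genes, paralogues 1 to 3, had a region in 6 of 8 cases in the lactate and 5 of 8 in the untreated library. Central genes, paralogues 4 to 8, had 11 of 15 and 9 of 15. Posterior genes, paralogues 9 to 13, had 10 of 16 and 9 of 16. Each gene of paralogue groups 5, 11 and 13 had a region in at least the lactate library. Both members of group 12, HOXC12 and HOXD12, and 3 of the 4 members of group 9 had none in either library. HOXB9 was the group 9 member with a region, with 2.01 tags/M (summit tags per 1000000 tags of the library) in the lactate and 1.26 tags/M in the untreated library.

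**Figure D2:**
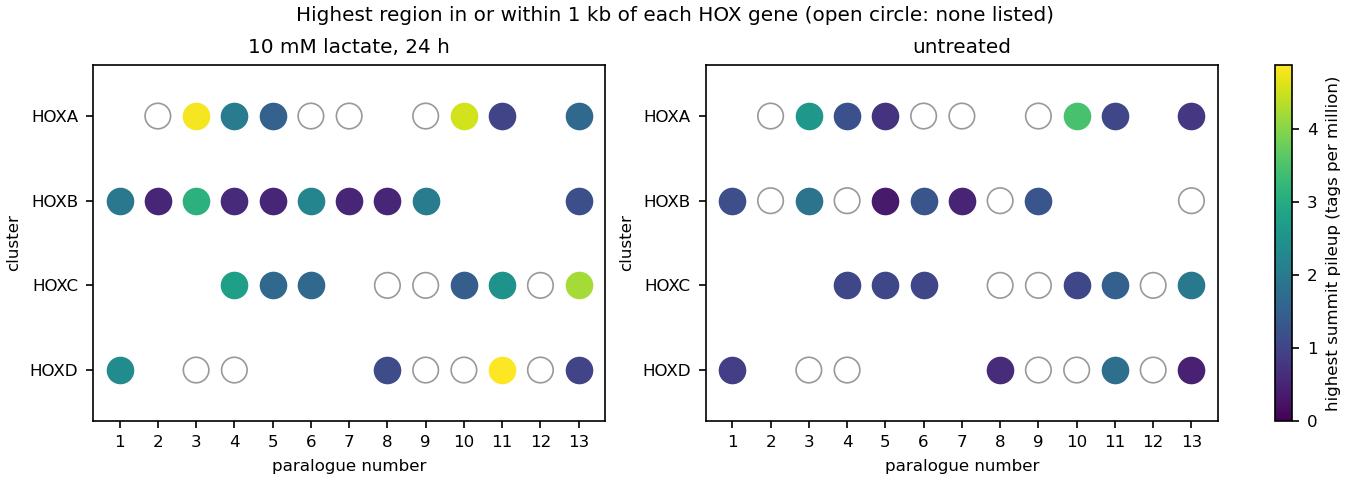
Filled circles give the highest summit pileup (tags/M, colour scale) in or within 1 kb of each HOX gene by cluster and paralogue number, the lactate library on the left and the untreated library on the right; open circles have no listed region and empty places have no gene or one not reported here. The highest lactate values lie at HOXD11, HOXA3, HOXA10 and HOXC13, the highest untreated values at HOXA10 and HOXA3, and HOXB2, HOXB4, HOXB8 and HOXB13 are filled in the lactate panel alone.

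The 4 genes with a region in the lactate library alone all belonged to HOXB. HOXB13, a posterior gene known for its role in prostate development, had 18 lactate summit tags (1.17 tags/M) across its annotated end of lower coordinate (chromosome 17, 48724535 to 48724823). That region lay 60 bp from the hairpin of MIR3185. HOXB13 had no promoter window, so the region was not placed at a promoter. The untreated region nearest to HOXB13 was 45884 bp away. The other 3 regions were weak. HOXB2, a hindbrain gene, had 8 tags, HOXB4, a gene of haematopoietic stem cell growth, had 9, and HOXB8, a gene studied in myeloid progenitors, had 8 tags in a region between it and HOXB7. HOXB13 stayed in the lactate library alone under the other windows, thresholds and list lengths tried. With a recomputed −log10 p of at least 7 required, HOXB13 alone remained so within HOXB. Stricter lists and a window of 0 kb also gave genes of other clusters in 1 library alone. At that −log10 p these were HOXA5, HOXA13 and HOXD8 in the lactate and HOXA11 in the untreated library. At a fold enrichment of at least 4 they were HOXA5, HOXD8 and HOXD13 in the lactate and HOXA11 in the untreated library, and at 0 kb HOXA4 and HOXA13 in the lactate library. Within 5 kb HOXC12 joined the lactate library alone. In lists of equal length by fold enrichment over local background, the HOX genes with a region numbered 21 in the lactate and 23 in the untreated library. HOXB4 and HOXB13 were then listed in the lactate library alone, and HOXA11, HOXB5, HOXB7 and HOXD13 in the untreated library alone.

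The lactate list had 42 HOX regions and the untreated list 35. After merging, 27 of 46 (58.7%, interval 43.2 to 73.0) were in both lists, against 66.5% of all merged regions. The lactate list alone held 13 (28.3%, 16.0 to 43.5), against 26% of all merged regions. The untreated list alone held 6 (13%, 4.94 to 26.3), against 7.48%. Each of these background shares lay inside the HOX interval. By cluster, HOXA had 17 merged regions, 2 of them listed for lactate alone and 4 for untreated alone, and HOXB had 13, with 6 and 2. HOXC had 10 with 3 in the lactate list alone, HOXD had 6 with 2 in the lactate list alone, and neither had one in the untreated list alone.

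At shared regions, summit height was taken as the highest number of extended tags over a region, in tags/M. The median was 2.01 tags/M in the lactate and 1.15 in the untreated library at the 27 shared HOX regions, and 2.01 and 1.21 at all 86803 shared regions. The lactate list had 122399 regions from 15401276 tags and the untreated list 98152 from 18248413 tags. With 1 library per condition, lactate cannot be told apart from a difference between libraries in the share of tags at open regions. More open cells and more cuts per open cell cannot be told apart either. The lactate value was higher at all 27 HOX regions, by ratios of 1.18 to 3.55 with a median of 1.67, while 11.3% of all shared regions had a ratio of 1 or less. The median over all shared regions was 1.65, close to that of the HOX regions. A ratio of at least 2 was found at 9 of 27 HOX regions (33.3%), against 29.3% of all shared regions. Since ratios rose with tag number over the genome, each was also divided by the median of regions with like summit tags, in 20 bins. This relative ratio had a HOX median of 0.995 and was above 1 at 12 of 27 regions (44.4%), against 48.4% of all shared regions.

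**Figure D3:**
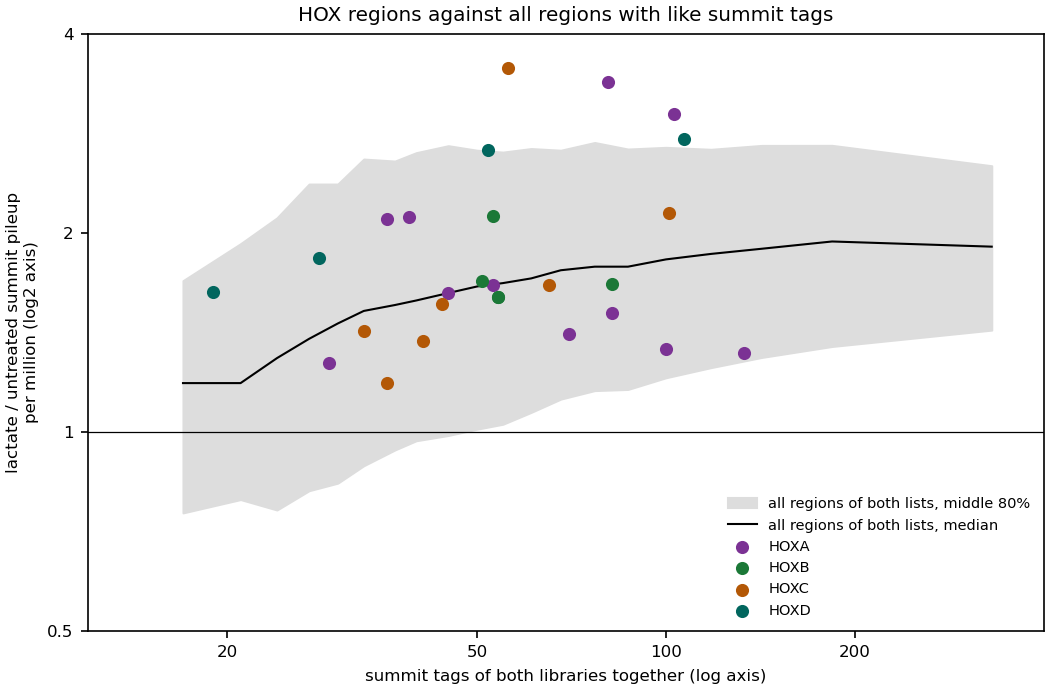
The lactate over untreated ratio of summit pileup in tags/M (log2 axis) is plotted against the summit tags of both libraries together (log axis) for the 27 shared HOX regions, coloured by cluster, over the median and middle 80% of all shared regions. The highest points near HOXC5, HOXA3 and HOXD11 lie above the band and all points lie above 1.

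Among the clusters HOXD had the highest median ratio, over 4 shared regions. The median was 1.62 in HOXA (11 regions), 1.67 in HOXB (5), 1.56 in HOXC (7) and 2.25 in HOXD (4). The median relative ratios were 0.995, 0.951, 0.95 and 1.45 in the same order. All 4 HOXD regions stood above regions with like tags, as did 48.4% of all shared regions. Their relative ratios in HOXD were 1.32 to 1.61, and the counting interval of each of these relative ratios included 1. Over all clusters that interval left out 1 at regions that include those of HOXA3, HOXA10 and HOXC4 described further on. The share of all shared regions whose interval leaves out 1 was not computed, so this does not set these regions apart. Taking the mean over a region's summits in place of the highest summit lowered the HOXD median ratio to 1.72. Within 5 kb of the genes HOXD had 6 shared regions with a median ratio of 1.73, close to the 1.65 of all shared regions. The tags summed over the 4 shared HOXD regions were 139 in the lactate and 67 in the untreated library, a ratio of 2.46 (1.82 to 3.34). Over the 27 shared HOX regions the sums were 1002 and 645, a ratio of 1.84 (exact conditional Poisson interval 1.67 to 2.04), against 1.75 over all shared regions.

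**Figure D4:**
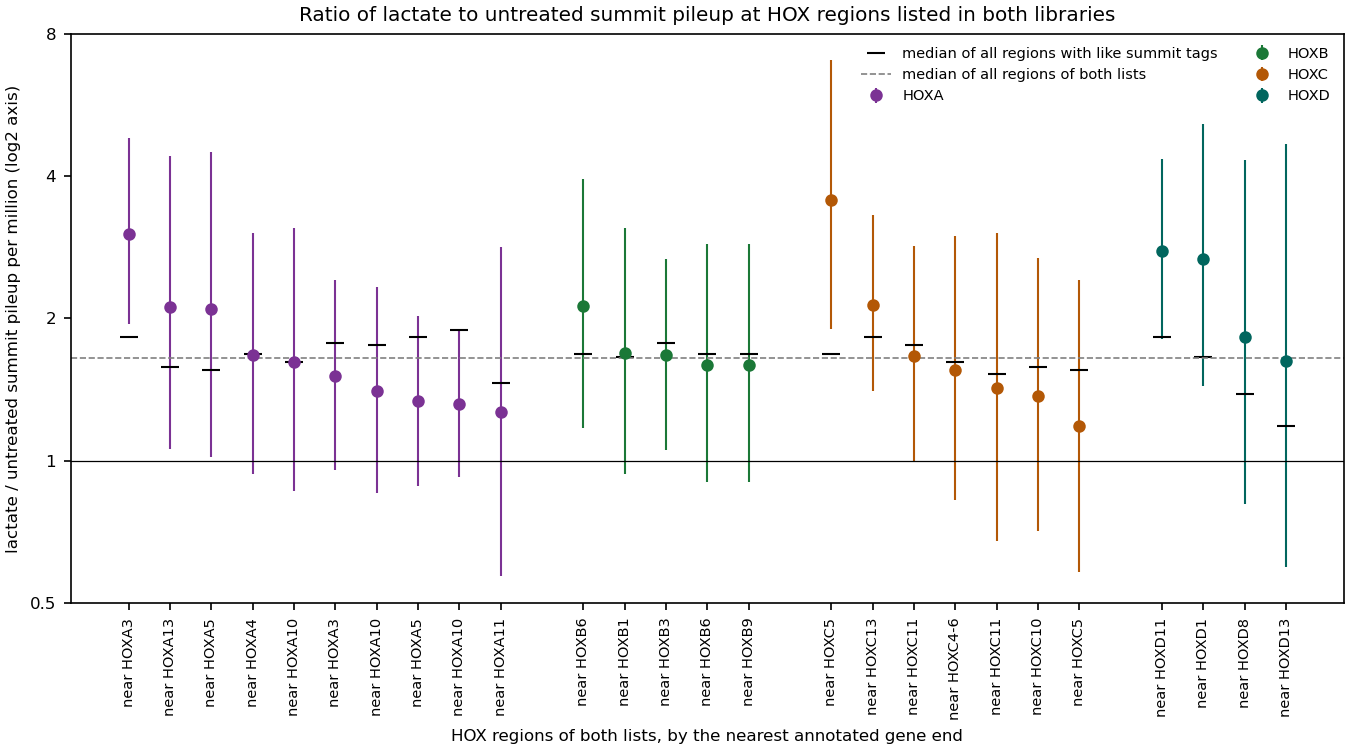
Points give the lactate over untreated ratio of summit pileup in tags/M (log2 axis) at 26 of the 27 shared HOX regions, named by the nearest annotated gene end and ordered within clusters, with exact 95% intervals for counting error; short black bars are medians of regions with like tags and the dashed line is the median of all shared regions. The 4 HOXD points and the highest points near HOXC5 and HOXA3 stand above their bars.

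In HOXA a narrow region of 221 bp in HOXA3, a gene needed for the thymus and parathyroid (chromosome 7, 27112688 to 27112908), had 74 summit tags in the lactate and 29 in the untreated library. Its ratio was 3.02 (1.94 to 4.82) and its relative ratio 1.66 (1.07 to 2.64). Within the same gene, the strongest HOXA region of the untreated list alone had 19 untreated tags (27114523 to 27114759).

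The HOXA region with the most tags lay beside HOXA10, a gene of the uterus and of blood cell development, over HOXA10-AS and the hairpin of MIR196B (27168994 to 27170016). It had 70 lactate and 63 untreated tags, a ratio of 1.32 (0.92 to 1.88). Its relative ratio of 0.696 (0.488 to 0.994) was the lowest of the 27 shared HOX regions. Another HOXA10 region (27173536 to 27173807) had 37 tags and was listed in the lactate library alone, the tallest HOX region with that status. HOXA11, a gene of the forearm, kidney and uterus, had 15 lactate and 14 untreated tags (27184490 to 27184919) and the lowest HOXA ratio, 1.27 (0.571 to 2.84). The narrow HOXA3 region and the HOXA10 region with the most tags thus lay on opposite sides of regions with like tags.

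MIR196B belongs to the miR-196 family, which is known to target HOX transcripts and whose members lie in 3 of the clusters. These sequences, shown with the seed (bases 2 to 8) in capitals and taken from RefSeq, were chosen after the regions had been seen.
hsa-miR-196b-5p: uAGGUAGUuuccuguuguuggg
hsa-miR-196a-5p: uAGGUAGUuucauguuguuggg
Both share one seed. The hairpin of MIR196B on chromosome 7 lay inside the shared HOXA10 region with 70 lactate and 63 untreated tags. The hairpins that give miR-196a-5p had no region over them in either list. The nearest region was 4002 bp from MIR196A1 in HOXB and 2646 bp from MIR196A2 in HOXC. MIR10A in HOXB and MIR10B in HOXD were likewise without one, at 2751 and 9230 bp.

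In HOXB the region with the most tags lay in HOXB3 (chromosome 17, 48585032 to 48586182), with 48 lactate and 34 untreated tags and a ratio of 1.67 (1.06 to 2.68). HOXB6 had one region on each side of the genome-wide shift. At 48603749 to 48604421 it had 34 lactate and 19 untreated tags, a ratio of 2.12 (1.18 to 3.93). At 48602609 to 48603083 it had 31 lactate and 23 untreated tags, a ratio of 1.6 (0.901 to 2.87). HOXB9 had the same tag numbers and ratio as the second HOXB6 region. The intervals of these regions overlap, so at this depth no order among them could be read. The strongest HOXB region of the untreated list alone had 9 tags, at HOXB7.

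In HOXC the ratio was highest in the body of HOXC4, nearest to the end of HOXC5 (chromosome 12, 54036880 to 54037176). This region had 42 lactate and 14 untreated tags, a ratio of 3.55 (1.90 to 7.05) and a relative ratio of 2.12 (1.13 to 4.20), the highest of the shared HOX regions on both measures. Another region at HOXC5, 54032594 to 54033554, had 18 tags in each library and the lowest HOX ratio, 1.18 (0.582 to 2.41). HOXC13, a regulator of hair keratin genes, had the most tags of HOXC at its annotated end (53938250 to 53939113). There the lactate library had 65 tags and the untreated library 36, a ratio of 2.14 (1.40 to 3.31) and a relative ratio of 1.17 (0.769 to 1.82). A further HOXC13 region with 28 tags was in the lactate list alone. At HOXC11, beside the noncoding RNA gene HOTAIR, 38 lactate and 27 untreated tags gave a ratio of 1.67 (0.992 to 2.84). HOXC4, HOXC5 and HOXC6 share one annotated start, so a region there counts for each of them.

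In HOXD the strongest region covered the promoter of HOXD11, a limb and kidney gene (chromosome 2, 176106212 to 176107461), whose sequence is given above. Its highest summit, in the lactate library, lay 582 bp before the annotated start, outside that sequence. The region had 75 lactate and 32 untreated tags, a ratio of 2.78 (1.81 to 4.34) and a relative ratio of 1.52 (0.995 to 2.38). With 4.87 tags/M it was the tallest HOX region of the lactate library. HOXD1, at the other end of the cluster, had 36 lactate and 16 untreated tags over its promoter, HAGLR and MIR7704 (176188061 to 176188852). Its ratio was 2.67 (1.44 to 5.15) and its relative ratio 1.61 (0.869 to 3.10). HOXD8 had 17 lactate and 11 untreated tags, a ratio of 1.83 (0.809 to 4.33). HOXD13, a digit patterning gene, had 11 lactate and 8 untreated tags in a shared region, a ratio of 1.63 (0.597 to 4.67), and further regions of 13 and 15 tags in the lactate list alone.

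By position along the axis the median ratios of shared regions were 1.69 for anterior, 1.71 for central and 1.61 for posterior genes. This order rested on how regions were assigned. The annotated body of HOXA3 spans HOXA4, HOXA5 and HOXA6, and regions at the ends of HOXA4 (31 lactate and 22 untreated tags) and HOXA5 (23 and 13) counted as HOXA3. Assigned by the nearest annotated end, the anterior median was 2.18 over 6 regions, the central median 1.67 over 9 and the posterior median 1.61 over 12. Among the anterior genes, HOXB1 had 30 lactate and 21 untreated tags at a shared region, a ratio of 1.69 (0.937 to 3.11).

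HOX regions were wider than other regions and stood on a higher local background, the tag level that the authors' peak caller expected around a summit. The median merged width was 501.5 bp for HOX and 326 bp for all regions. Shared HOX regions had median widths of 667 bp in the lactate list and 606 bp in the untreated one, against 392 and 362 bp for all. Part of this gap was shared by genic regions, those in or within 1 kb of any protein-coding gene, with a median merged width of 361 bp and widths of 441 and 412 bp at shared regions. The median local background was 0.213 tags/M in the lactate and 0.201 tags/M in the untreated library at shared HOX regions, against 0.138 and 0.125 at all shared regions and 0.161 and 0.146 at shared genic ones. At 3 HOXA10 regions it reached 8.38 to 8.40 tags in the lactate library. The median fold enrichment over it, the authors' value for each region, at shared HOX regions was 7.65 in the lactate list and 4.74 in the untreated one, against 9.18 and 6.38 for all. Regions of the narrow class, 218 to 226 bp wide, made up 2 of 46 HOX regions (4.35%) and 13.2% of all.

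**Figure D5:**
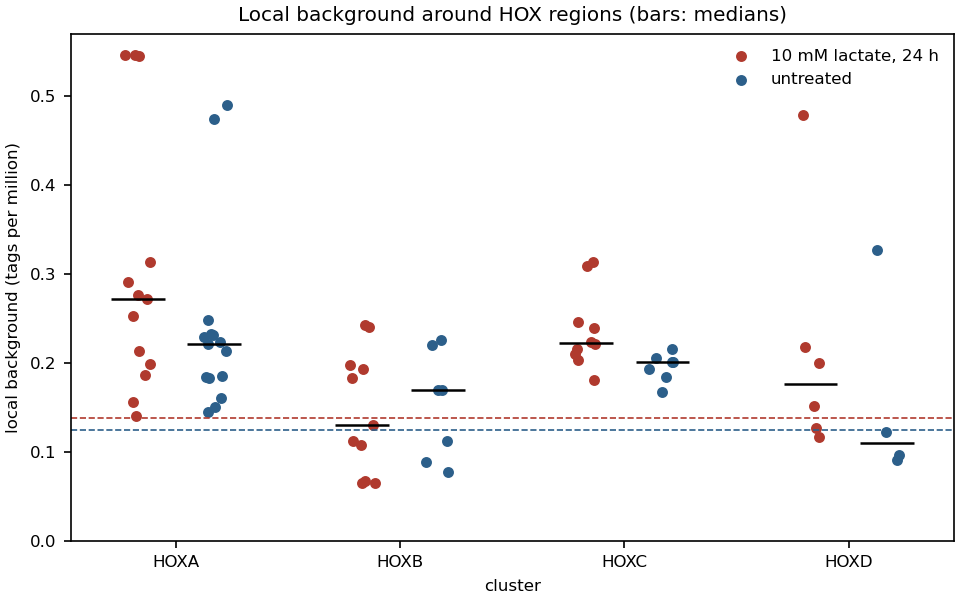
Points give the local background in tags/M around each HOX region of each list by cluster, the lactate library left and the untreated library right, with bars at medians and dashed lines at the medians of all shared regions (0.138 lactate, 0.125 untreated). HOXA and HOXC points lie above their library's dashed line, and HOXB and HOXD fall on both sides. The highest points belong to HOXA10 regions, although the one at the HOXA10 promoter lies lower.

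Between the genes, more than 1 kb from any of them but inside the clusters, lay 17 further merged regions. Of these, 12 were in both lists, 4 in the lactate list alone and 1 in the untreated list alone. The highest summits among them, in HOXD, had 40 tags in the lactate and 35 in the untreated library. HOXB held 6 such regions, HOXC 5, HOXD 4 and HOXA 2. Regions over a noncoding gene of the clusters had a median ratio of 1.67 over 15 shared regions, and those over none 1.65 over 12.

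The HOX promoters with a RefSeq sequence were mostly of 2 clusters, with 16 windows in HOXA, 8 in HOXD and 1 each in HOXB and HOXC. A region covered 7 of the 26 HOX windows, in both libraries each time, against 56.8% of all 22011 promoter windows. By gene, 7 of 20 HOX genes (35.0%) had an open window, against 63.7% of 15711 genes. The open windows were those of HOXA3 at an inner start, HOXA4, HOXA10, HOXA13, HOXD1, HOXD8 and HOXD11. The regions over them had between 17 and 75 summit tags in the lactate and between 11 and 36 in the untreated library. These are the highest summits of whole regions, and some, such as that of HOXD11, lay outside the window. HOXA13, a distal limb gene whose window had the highest GC content, 78.0%, had 25 lactate and 14 untreated tags.

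The median GC content was 70.0% in the 7 open HOX windows and 53.2% in the 19 others, against 65.6% in all open windows and 55.2% in all windows without a region. The CpG ratio, observed over expected, had medians of 0.976 in open and 0.701 in other HOX windows. In all windows without a region it was 0.353, so the median CpG ratio of HOX windows without a region was above that of all such windows. CCAAT was found in 17 of 26 HOX windows (65.4%) and in 32.7% of all windows, and TATAAA in 5 (19.2%) and 9.02%. GGGCGG was found in 13 (50%) and 53.7%, and TGATTNAT in 2 (7.69%) and 1.82%. The CTCF core motif occurred in 1 (3.85%) and 2.16%, and TGANTCA in no HOX window and 5.36% of all. These shares are descriptions, since several windows belong to one gene and HOXC4 and HOXC5 share a window.

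Genes that act with or upon HOX genes were compared at their annotated ends. Among all protein-coding genes, both libraries listed such a region at 61.8%, the lactate library alone at 6.09%, the untreated library alone at 0.836%, and neither at 31.3%. Of the 39 HOX genes, both listed one at 21, the lactate library alone at 3, the untreated library alone at 0 and neither at 15. Of the 9 TALE partner genes, 7 had one in both, PBX2 in the lactate library alone (10 tags) and MEIS3 in neither. Their median ratio was 2.16, against 1.80 over all 12561 gene-end regions.

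The Polycomb lists are read against the shares of all genes, 61.8% in both libraries and 31.3% in neither. Of 10 genes of PRC2, the complex that methylates histone H3 at lysine 27, 9 were listed at an end in both libraries, with a median ratio of 1.93. EED, one of its core subunits, had 68 lactate and 71 untreated tags and the lowest ratio of that list, 1.13 (0.802 to 1.61). Of 16 genes of PRC1, the complex that ubiquitinates histone H2A, 9 were listed in both, 6 in neither and 1 in the lactate library alone. PHC2 had 76 lactate and 27 untreated tags, a ratio of 3.34 (2.12 to 5.38). All 10 trithorax genes had a region in the lactate library and 9 in the untreated library, with a median ratio of 1.72, and KMT2C was the one in the lactate library alone (19 tags).

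Of 14 retinoic acid genes, 6 were listed at an end in both libraries, with a median ratio of 1.34 and none above regions with like tags. The highest of them, at the receptor gene RARG, was 1.85, above the trithorax median, so the lists overlapped. The receptor gene RARA had 18 lactate and 28 untreated tags, a ratio of 0.762 (0.397 to 1.43) and a relative ratio of 0.470 (0.245 to 0.880). It was chosen after its values had been seen. ALDH1A1, which makes retinoic acid, had 13 and 22 tags, a ratio of 0.7 (0.324 to 1.45). RXRA was listed in the untreated library alone, with 26 tags, and RXRG (11 tags) and ALDH1A3 (18 tags) in the lactate library alone. EVX1 and EVX2, the homeobox genes next to HOXA and HOXD, had no gene-end region in either library. Among 13 other developmental transcription factor genes of the head, 8 had a region in both libraries, with a median ratio of 1.97, and MSX1 had 23 lactate and 7 untreated tags, a ratio of 3.89 (1.62 to 10.7). Of the CDX and ParaHOX genes, CDX2 was the one of 6 in both libraries, with 29 and 23 tags, and GSX2 and PDX1 were in the lactate library alone.

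The labelled cell type was checked at marker genes. Of 10 squamous epithelial markers, 8 were listed at an end in both libraries, and KRT14 and TP63 had none in either. None of 5 endothelial markers had one in either library. Of 7 fibroblast markers, 3 were in the lactate and 4 in the untreated library, of 6 leukocyte markers 4 in each, and of 5 neuronal markers 2 in the lactate and 4 in the untreated library. Against 61.8% of all protein-coding genes in both libraries and 31.3% in neither, the squamous and leukocyte counts do not set the labelled cell type apart. The part of other cells in the HOX values was not tested.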

How the data were processed

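Each library has 1 list of accessible regions. Per the submitters' processing notes the tools were fastp 0.20.0, BWA 0.7.12 and MACS2 2.1.0 on hg38, whereas the file headers name MACS 2.2.7.1. Per the file headers, the authors called regions per library without a control, at a q-value threshold of 0.05. The shift was 100 bp in size, given here without its sign, and the extension was 200 bp. Such a setting is meant to centre tags on Tn5 cuts. The deposited pileup is a signal, the unscaled number of extended tags at a summit, and the deposited fold enrichment is the ratio of pileup to local background, with 1 added to each. Positions and widths were deposited in base pairs. The local background was recovered from both values, and −log10 p recomputed from them.

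Regions of both lists were merged on an overlap of at least 1 bp, the highest summit was taken per library, and it was divided by the library's total tags. A merged region was assigned to the HOX gene whose body holds its summit or lies closest to it. Where several bodies held the summit, the gene with the nearer annotated end was taken. Gene, promoter and miRNA tables came from RefSeq GRCh38.p14. Python 3.11.15, pandas 2.3.3 and scipy 1.17.1 were used and tested on simulated data, and bedtools 2.31.1 gave the same overlaps. One tag is worth 0.0649 tags/M (tags per 1000000 tags of the library) in the lactate and 0.0548 in the untreated library.

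Regions named in full were, per cluster, the 2 with the most summit tags, those with the highest and lowest ratio among shared regions of at least 20 tags, and the strongest of each list alone. List genes named were those with the highest or lowest ratio or a region in 1 library alone. Results for 1 HOX gene and 1 partner gene are not reported here. Members and lists were chosen with earlier results of these data known. Alternatives varied the window, thresholds, list length, overlap, scaling and summit choice.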

Additional observations from a re-analysis of the deposited data

How the results depend on the processing

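No paired analysis was possible because lactate and untreated cells gave 1 library each. Of 96 alternative values, 76 stayed within 1.5 times a count or within the counting interval of a ratio, 14 moved farther and 6 turned to the other side of 1. A fold enrichment of at least 4 left 21 untreated HOX regions and 0 in the untreated list alone, and a recomputed −log10 p of at least 7 left 23 and 1. Lists of equal length by fold enrichment gave 26 lactate regions, 3 in the lactate list alone and 11 in the untreated list alone, the reverse of the reported order; by construction this shortens the lactate list alone.

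Divided by the median ratio of all regions, the median HOX ratio was 1.01, with 0.984 in HOXA, 1.01 in HOXB, 0.946 in HOXC and 1.36 in HOXD. Divided by the median of regions with like summit tags it was 0.995, with 0.995 in HOXA, 0.951 in HOXB, 0.95 in HOXC and 1.45 in HOXD. HOXD was the cluster above 1 under both scalings by more than 0.05. By unscaled pileup the median was 1.41 over all HOX regions and 1.37 in HOXA. Assignment by the nearest annotated end, chosen after seeing the data, gave an anterior median of 2.18. Depth limits single regions, and no order among most of them could be read from their intervals.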
